A study of Mus musculus with 3 samples.

Results

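The C1q+ Fcgr4+ cells are splenocytes of the lupus-prone strain B6.SLE123 in which transcripts of the complement protein C1q were found together with transcripts of the Fc receptor gene Fcgr4, the chemokine gene Cxcl14 or the protease gene Adamdec1. They were chosen by these RNA values. A barcode entered when it held 201 to 3499 detected genes, under 15% mitochondrial counts and a leading hashtag at least 3 times the next one. It also had to hold 2 or more unique molecular identifiers (UMIs, each a captured RNA molecule) of C1qa, C1qb and C1qc together and 3 or more of Fcgr4, Cxcl14 and Adamdec1 together. Fewer than 2 UMIs of the red pulp macrophage genes Vcam1, Spic, Slc40a1, Cd5l and Fcna were allowed, and none of the B cell gene Cd79a. Of 47453 kept cells, 116 met the rule, and all of them came from the B6.SLE123 library. The levels of the rule genes are therefore descriptions.

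Spleens of mice aged 12 to 14 weeks were depleted of T cells with CD3 microbeads and profiled in 3 single-cell libraries by 10x Genomics 5′ chemistry. The control library held cells of male sham-treated and of female C57Bl/6 mice. For the Ang II library, C57Bl/6 mice had received angiotensin II from minipumps for 2 weeks, starting at 10 weeks of age, together with placebo or 2-HOBA (2-hydroxybenzylamine, a scavenger of isolevuglandins). The B6.SLE123 library held cells of B6.SLE123 mice given placebo or 2-HOBA from 7 weeks of age for 6 weeks. The strain is C57BL/6 carrying lupus susceptibility intervals of another strain. Each condition was a pool of 3 mice marked with TotalSeq-C hashtag antibodies, C0301 to C0306, and each library pooled 2 conditions. No label ties a hashtag to a condition, so 2-HOBA-treated and placebo-treated cells were not compared, and hashtag populations were not taken as replicates. The sources used here do not say if a hashtag stands for a single mouse. With 1 library per strain or treatment, no difference between libraries has a replicate check and no p-value is given. Per the study's methods the B6.SLE123 mice were female, while the control library held both sexes, so strain, treatment, sex, pool and library cannot be told apart.

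C1q is the recognition part of the classical complement pathway. It is assembled from A, B and C chains, binds immune complexes and dying cells, and is made mainly by macrophages and dendritic cells rather than by liver. Inherited lack of C1q is a strong cause of lupus in humans. Fcgr4 encodes FcγRIV, an activating receptor for IgG2 antibodies carried by nonclassical monocytes, macrophages and neutrophils. Nonclassical monocytes patrol the vessel wall, while red pulp macrophages clear aged red cells and conventional dendritic cells present antigen on MHC class II. PU.1, the product of Spi1, is a transcription factor on which all of these lineages depend.

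The A, B and C chain genes lie side by side on the minus strand of chromosome 4 in GRCm38 (GENCODE vM21), with C1qb at 136880129-136886187, C1qc at 136889804-136893065 and C1qa at 136895917-136898803. Fcgr4 lies at 171018920-171029761 of chromosome 1, Cxcl14 at 56288643-56296551 of chromosome 13 and Adamdec1 at 68563380-68582095 of chromosome 14. The 250 bases before the RefSeq start of 4 of these 6 genes are shown because the cells were chosen by the transcripts of these genes. They are given 5′ to 3′ on the gene's strand, from RefSeq on GRCm38.p6. The RefSeq starts of C1qb, C1qc and Fcgr4 differ from the GENCODE positions above, while that of Cxcl14 is the same. Much of the C1qc window lies inside the GENCODE span of C1qc, which ends at 136893065, as do the last bases of the Fcgr4 window inside that of Fcgr4. Capitals mark GAGGAA or its reverse complement TTCCTC, a form of the core bound by PU.1. The DNA probe on which the study tested PU.1 holds neither string, so a window without capitals is not shown to lack a PU.1 site.
C1qb, chr4:136886201-136886450, minus strand: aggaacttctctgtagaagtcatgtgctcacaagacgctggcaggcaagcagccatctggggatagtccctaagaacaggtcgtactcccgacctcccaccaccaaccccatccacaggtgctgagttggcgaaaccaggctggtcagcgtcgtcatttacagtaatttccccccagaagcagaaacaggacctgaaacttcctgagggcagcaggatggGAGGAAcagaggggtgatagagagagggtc
C1qc, chr4:136892915-136893164, minus strand: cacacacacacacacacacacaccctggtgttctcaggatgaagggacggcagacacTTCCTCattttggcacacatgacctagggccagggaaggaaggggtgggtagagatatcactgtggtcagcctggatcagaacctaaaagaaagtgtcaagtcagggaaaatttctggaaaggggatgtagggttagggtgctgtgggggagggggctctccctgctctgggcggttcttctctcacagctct
Fcgr4, chr1:171018676-171018925, plus strand: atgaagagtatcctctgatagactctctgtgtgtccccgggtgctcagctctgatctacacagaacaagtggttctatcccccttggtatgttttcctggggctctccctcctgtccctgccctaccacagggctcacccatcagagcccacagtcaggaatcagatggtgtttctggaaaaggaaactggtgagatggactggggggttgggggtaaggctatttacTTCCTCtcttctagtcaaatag
Cxcl14, chr13:56296552-56296801, minus strand: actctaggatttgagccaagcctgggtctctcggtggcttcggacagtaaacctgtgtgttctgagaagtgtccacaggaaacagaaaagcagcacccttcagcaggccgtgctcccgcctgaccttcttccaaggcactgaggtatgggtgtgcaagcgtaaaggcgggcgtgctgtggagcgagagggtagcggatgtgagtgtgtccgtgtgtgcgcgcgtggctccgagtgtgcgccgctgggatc
The core began 30 bases before the RefSeq start in C1qb, 193 bases before it in C1qc and 22 bases before it in Fcgr4. These letters are not in the Cxcl14 window. Of 32851 promoters of the same length, 7639 (23.3%) held the core on either strand, so a match describes the letters and is not a measured binding site. Spi1 itself was read at 834 CPM in the C1q+ Fcgr4+ cells, with an exact Poisson 95% interval of 738-939, where CPM is the number of UMIs of a gene divided by all UMIs of that class, times a fixed factor that is equal for all classes. A UMI of Spi1 was held by 82.8% of the cells. It was at 804 CPM in nonclassical monocytes, 407 CPM in conventional dendritic cells and 164 CPM in red pulp macrophages.

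The libraries held 18218 (control) and 16062 (Ang II) barcodes from C57Bl/6 mice and 20691 from B6.SLE123 mice, of which 84.6 to 87.6% were kept. Kept cells had median UMI counts of 1792 in the control, 2771 in the Ang II and 1956 in the B6.SLE123 library. The libraries shared 415 to 496 barcode sequences by pairs, among them 4 of the C1q+ Fcgr4+ barcodes with the control library and 3 with the Ang II library. All intervals given are 95% intervals that cover counting error only.

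The C1q+ Fcgr4+ cells made up 0.662% of the kept B6.SLE123 cells (116 of 17514, Clopper-Pearson interval 0.548-0.794%). None were found among 15957 control cells, where the interval reaches 0.0231%, nor among 13982 Ang II cells, where it reaches 0.0264%. When cells were thinned to 1000 UMIs, 80 of 15334 B6.SLE123 cells and no cell of the other libraries met the rule. Shallower cells were left out of this step, 2180 of B6.SLE123, 1388 of the control and 898 of the Ang II library, and 12 of the 116 C1q+ Fcgr4+ cells were among them. Within the B6.SLE123 library, 106 of the 116 cells (91.4%) carried hashtag C0303. They were 3.21% of the C0303 cells (2.63-3.86%), against 0.210% of C0304 (6 cells, 0.0772-0.457%), 0.107% of C0302 (3 cells, 0.0220-0.311%) and 0.0441% of C0305 (1 cell, 0.00112-0.245%). No such cell was found in C0301 or C0306, where the intervals reach 0.125% and 0.111%. Without C0303, the share in the library was 0.0704% (10 of 14208 cells). The cells were thus concentrated in 1 hashtag population, and the values below are mostly those of that population. C0303 also had the highest median depth of the 6, 2622 UMIs against 1617.5 to 2226 in the others, and the highest share of nonclassical monocytes. The part of depth in the share was not tested beyond the thinning.

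**Figure D1:**
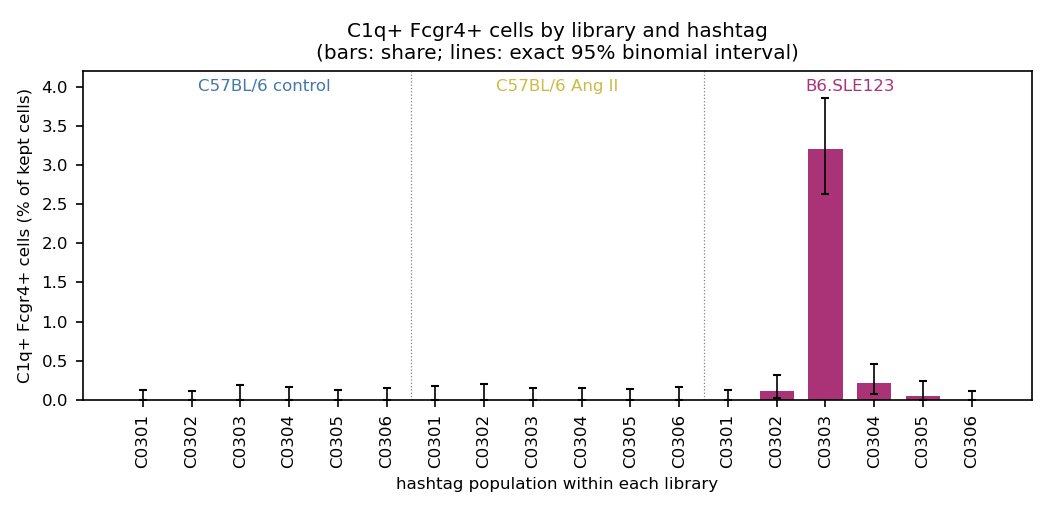
Share of kept cells that met the C1q+ Fcgr4+ rule, in percent, for each hashtag population of the 3 libraries, with exact 95% binomial intervals. C0303 of the B6.SLE123 library stands at 3.21%, the other B6.SLE123 hashtags at 0 to 0.210%, and every hashtag of the control and Ang II libraries at 0.

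Every C1q+ Fcgr4+ cell held Fcgr4 itself, and 115 of the 116 reached the limit of 3 UMIs by Fcgr4 without the other genes, the remaining cell having 2 Fcgr4 UMIs. Cxcl14 and Adamdec1 were both present with it in 46 cells, Cxcl14 alone in 31, Adamdec1 alone in 18 and neither in 21. Transcripts of all 3 C1q chains were found in 94 of the 116 cells. The cells held a median of 23 C1q UMIs, ranging from 2 to 145, and a median of 11 UMIs of the Fcgr4 group, ranging from 3 to 38. Just inside the limits, 6 cells had exactly 3 UMIs of the Fcgr4 group and 6 cells exactly 2 of C1q. Just outside them, 19 cells had 2 UMIs of the Fcgr4 group with all else met and 8 cells had 1 of C1q. A further 15 cells were left out for 2 or more red pulp macrophage UMIs, and 28 for a Cd79a UMI.

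**Figure D2:**
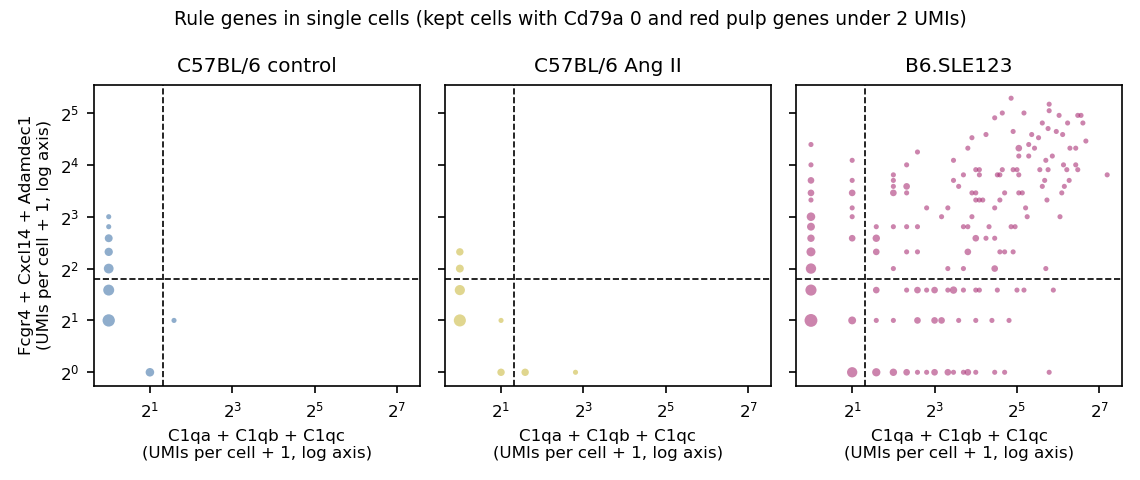
C1q UMIs against Fcgr4, Cxcl14 and Adamdec1 UMIs per kept cell with no Cd79a UMI and under 2 red pulp macrophage UMIs, both as UMIs + 1 on a log2 axis, with larger dots for more cells and dashed lines at the limits of 2 and 3. The upper right area, which defines the C1q+ Fcgr4+ cells, is empty in the control and Ang II libraries and holds 116 cells in the B6.SLE123 library.

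The C1q chains were at levels within 2-fold of those of red pulp macrophages, the other C1q-bearing class. C1qa was at 2684 CPM (2509-2867) against 3987 CPM in red pulp macrophages, C1qb at 5139 CPM (4896-5390) against 5546 CPM, and C1qc at 3246 CPM (3054-3447) against 4184 CPM. Of the C1q UMIs of the C1q+ Fcgr4+ cells, C1qb held 46.4% (44.8-48.1%), against 40.4% (37.1-43.8%) in red pulp macrophages. C1qa held 24.2% (22.9-25.7%) against 29.1% (26.0-32.3%), and C1qc held 29.3% (27.8-30.8%) against 30.5% (27.4-33.7%). Among the C1q+ Fcgr4+ cells, those of C0303 had more C1qa than the other 10 (log2 0.50, 0.03-1.01) and less C1qc (-0.39, -0.72 to -0.05). These are values of the genes that chose both classes.

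Fcgr4 stood at 3548 CPM (3347-3758) in the C1q+ Fcgr4+ cells. It was at 226 CPM in nonclassical monocytes and 197 CPM in red pulp macrophages. Cxcl14, a chemokine of epithelia and some myeloid cells, was at 595 CPM (515-685) and was found in 66.4% of the cells. Adamdec1, a secreted metalloprotease of tissue macrophages, was at 507 CPM (433-590) and in 55.2%. The background of free RNA was low for each rule gene. The 11136 B cells of the library, chosen by 2 or more Cd79a UMIs and 1 or more of Ms4a1, should lack these transcripts. Of them, 0.162 to 0.772% held a UMI of any 1 of the 6 genes. Median depths were 2218 UMIs in B cells and 2731.5 in C1q+ Fcgr4+ cells. After thinning to 1000 UMIs, C1qb was in 87.5% of the C1q+ Fcgr4+ cells and in 0.30% of B cells.

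The name monocyte-derived dendritic cell was checked against marker genes, and it held only in part. Of the dendritic cell genes, Itgax (CD11c) was at 519 CPM and in 69.0% of the cells, Batf3 was in 59.5% and Cadm1 in 40.5%. Batf3 is a transcription factor of cross-presenting dendritic cells and Cadm1 an adhesion molecule of theirs. Against this, Flt3, the growth factor receptor of dendritic cells, gave 1 UMI in 116 cells and Zbtb46, a transcription factor of conventional dendritic cells, gave 4. Of the monocyte genes, Csf1r, by which the study assigned the monocyte lineage, was in 36.2% of the cells. The 20 nonclassical monocyte genes summed to 10327 CPM, against 12817 CPM in nonclassical monocytes, with all but Ace seen. Of 12 classical monocyte genes, Ccr2, Vcan and Fn1 were at 0 UMIs. With a count of 0 set to 3, this allows a UMI in up to 2.59% of the cells. The other 9 were seen, and 73.3% of the cells held a UMI of the list. It summed to 1224 CPM, against 6003 CPM in nonclassical monocytes and 1376 CPM in B cells. Lyz2 (lysozyme) was in 6.03% of the C1q+ Fcgr4+ cells. The macrophage genes Mertk, Timd4, Mrc1, Cd163 and Mfge8 were at 0, while Cd68 was in 64.7%. The cells are therefore called by their leading genes. They were compared, within the B6.SLE123 library, with 3 classes set by the same kind of limit. These were 299 nonclassical monocytes (3 or more UMIs of Ace, Ear2 and Treml4 and under 2 of C1q), 55 red pulp macrophages (3 or more UMIs of the red pulp macrophage genes, 2 or more of C1q and under 3 of the Fcgr4 group) and 117 conventional dendritic cells (3 or more UMIs of Xcr1, Clec9a, Cd209a, Clec10a and Clec4a4 and under 2 of C1q). No Cd79a UMI was allowed in any of them. Hashtag C0303 was carried by 46.8% of the nonclassical monocytes, 18.2% of the red pulp macrophages and 26.5% of the conventional dendritic cells. The pooled ratios below therefore mix cell class with hashtag, and counts within C0303 are given beside them.

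Against nonclassical monocytes, the C1q+ Fcgr4+ cells carried far more of the B cell surface receptor genes Cd72 and Fcrl5, the chemokine gene Ccl4, the phosphatase gene Acp5 and the inflammatory genes Wfdc17, Il1b and Pycard, and far less Lyz2. Of 3290 genes with 50 or more UMIs over both classes, 258 were higher by 2-fold or more (7.84%) and 341 lower by 2-fold or more (10.4%). The median log2 ratio of all of them was 0.05. A 2-fold size takes the place of a test here, since each class is 1 sample. Scaling by TMM, which moved every log2 ratio by -0.17, gave 188 higher and 429 lower, so that 30.5% rather than 43.1% of these genes were the higher ones. Without C0303, 150 were higher and 306 lower, and within C0303, 227 were higher and 231 lower.

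Among the genes furthest above nonclassical monocytes were several of surface receptors. Cd72, an inhibitory co-receptor best known on B cells, was at 1313 CPM against 36.3 CPM, a log2 ratio of 5.18 (4.64-5.76). It was found in 87.1% of the C1q+ Fcgr4+ cells against 7.69% of nonclassical monocytes and 8.55% of conventional dendritic cells, and after thinning in 67.3%, 5.19% and 0% of them. Fcrl5, an Fc receptor-like gene of B cells, was at 699 CPM against 12.1 CPM (log2 5.85, 4.95-6.93) and was in 73.3% against 3.34% of cells. Both differences were seen inside C0303, at log2 4.57 and 5.37, and outside it, at 6.26 and 7.26.

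The other leading genes had varied roles. Ccl4, a chemokine for T cells and monocytes, was at 284 CPM against 2.42 CPM (log2 6.87, 4.98-9.94). Asb2, a ubiquitin ligase subunit, stood at log2 6.23 and Nxpe3 at 6.01. Lipg, a phospholipase, stood at log2 5.52, and Rgs1, which shortens chemokine receptor signals, at 4.87. The adhesion gene Negr1 had 58 UMIs against 0, at least 48.8-fold higher when the class at 0 is set to 3 counts. Ifit1bl1 stood at log2 4.74 and Klra17 at 4.40, both from families of near-identical copies whose counts are uncertain. Acp5, the tartrate-resistant acid phosphatase of osteoclasts and macrophages, was at 1536 CPM against 115 CPM (log2 3.74, 3.42-4.07) and was in 92.2% of the C1q+ Fcgr4+ cells.

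**Figure D3:**
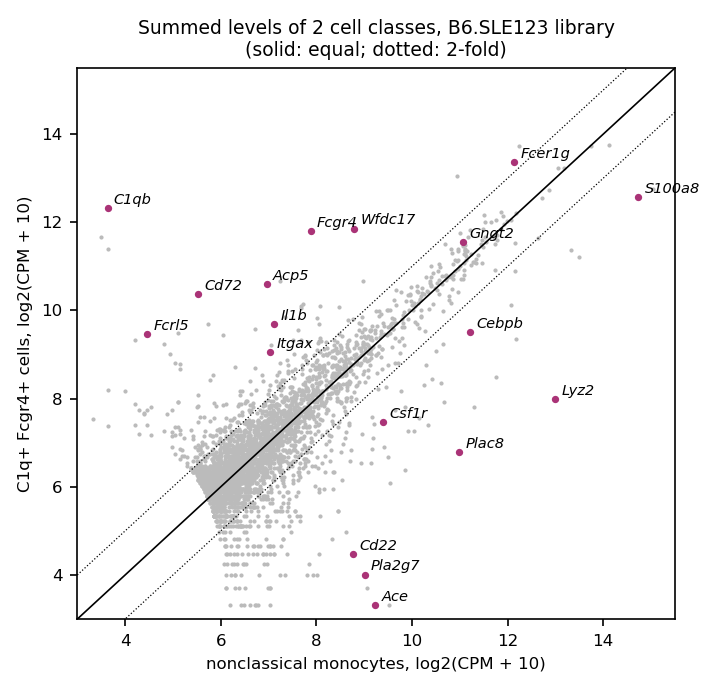
Log2(CPM + 10) of each gene with 50 or more UMIs in the C1q+ Fcgr4+ cells (vertical) against nonclassical monocytes (horizontal), with the solid line at equal levels and the dotted lines at 2-fold. Most genes lie near the solid line, with Cd72, Fcrl5 and Wfdc17 far above it and Lyz2 and Plac8 far below it.

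Lyz2, the lysozyme gene of monocytes, macrophages and neutrophils, was among the 10 lowest. It gave 80 UMIs in 7 of the 116 C1q+ Fcgr4+ cells, 55 of them in 1 cell, against 6705 UMIs in 275 of 299 nonclassical monocytes (log2 -5.05, -5.39 to -4.74). The share of C1q+ Fcgr4+ cells with a UMI, 6.03%, was near the 4.38% of B cells, and after thinning the shares were 3.85%, 90% in nonclassical monocytes and 2.5% in B cells. In 4 of the C1q+ Fcgr4+ cells, 1% or more of the UMIs came from neutrophil genes. Without them and the 33 such nonclassical monocytes, 5 Lyz2 UMIs were left and the log2 ratio was -8.81. Also among the lowest were Pla2g7, a phospholipase of lipid mediators (log2 -6.37), the scavenger receptor gene Lrp1 (-5.34), the sphingosine phosphate receptor gene S1pr5 (-5.31), Hsd11b1 (-5.31), Ly6i (-5.27), Arl5c (-5.27), Gstm1 (-5.12) and Cd22 (-5.12). Prg2 was lower as well, but its 602 UMIs came from 1 nonclassical monocyte.

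The nonclassical monocyte genes split. Of 17 listed genes that did not serve in the rules, 5 were higher by 2-fold or more, 6 lower and 6 neither, with a median log2 ratio of 0.12. Clec4a3, a C-type lectin receptor, was at 1606 CPM against 495 CPM (log2 1.70), with its neighbour Clec4a1 at 1.69 and the activating receptor Cd300e at 1.25. Fabp4, a fatty acid carrier, and Stap1, an adaptor, were at log2 1.05 and 1.03 and fell under 2-fold with TMM scaling (0.88 and 0.86). Spn (CD43) was at log2 -0.06 and Nr4a1, the transcription factor on which nonclassical monocytes depend, at -0.11, both within counting error of 0. The fractalkine receptor gene Cx3cr1 was lower at log2 -1.33, the integrin gene Itgal at -2.74, Eno3 at -1.66 and Ceacam1 at -4.17. Csf1r, the receptor that keeps monocytes alive, was at 168 CPM against 667 CPM (log2 -1.99). Ace, which had helped to choose the nonclassical class, was at 0 UMIs in the C1q+ Fcgr4+ cells. Of 8 classical monocyte genes, 6 were lower and none higher (median -3.15), among them Plac8 at -4.32 and Ly6c2 at -2.96.

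Receptors and complement genes went in both directions. Fcer1g, the shared signalling chain of activating Fc receptors, was at 10504 CPM against 4485 CPM (log2 1.23, 1.16-1.30), and every C1q+ Fcgr4+ cell held it. It was lower than 2-fold outside C0303, at log2 0.96. Fcgr3, another activating receptor, was lower at log2 -1.04, though at -0.68 within C0303. Of 6 complement genes tested beside C1q, 1 was higher and 3 lower. Cfp (properdin) was at log2 2.20, C3 at -3.04 and the anaphylatoxin receptor gene C5ar1 at -3.59. Cfp was higher both within C0303 (1.77) and without that hashtag (3.00), but as a mean over hashtag populations it was -0.033.

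Most of the inflammatory genes named by the study were higher. The study had chosen Fcgr4, Cxcl14, Il1b, Wfdc17, Pycard and Coro1a on these samples, so their direction is no independent evidence. Of the 4 that were not in the rule, 3 were higher by 2-fold or more and 1 neither. Wfdc17, a secreted antiprotease-like protein of activated macrophages, was at 3701 CPM against 433 CPM (log2 3.09, 2.92-3.27). Il1b, the interleukin-1β gene, was at 821 CPM against 128 CPM (log2 2.68, 2.35-3.02). Pycard, the inflammasome adaptor ASC, was at 1090 CPM against 195 CPM (log2 2.48, 2.21-2.76). Coro1a, which binds actin, was at 1136 CPM against 1800 CPM (log2 -0.66, -0.83 to -0.50). Wfdc17 was at log2 3.09 within C0303 and 1.88 without it, while Il1b was at 2.24 and 3.87. Of 6 inflammasome genes 2 were higher and none lower, and Casp1 stood at 0.33.

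Several genes of the phagocyte NADPH oxidase and of chemokine sensing were lower. Of 7 oxidase genes, 4 were lower by 2-fold or more and none higher, with a median of -1.56. Cybb, the catalytic subunit, was at 421 CPM against 1238 CPM (log2 -1.56), Ncf1 at -2.80 and Ncf4 at -2.20. The neutrophil list, whose cells also use the oxidase, summed to 18992 CPM in the C1q+ Fcgr4+ cells and 91282 CPM in nonclassical monocytes, with 9 of its 10 genes lower. Without the cells rich in neutrophil RNA, Cybb was at -1.65 and Ncf1 at -2.85. All 3 chemokine receptor genes tested were lower, with Cxcr4 at -3.65. Of 13 adhesion genes, 6 were lower and 1 higher, among them Itga4 at -2.15 and the hyaluronan receptor gene Cd44 at 70.2 CPM against 281 CPM. Of 4 chemokine genes beside Cxcl14, 2 were higher and 1 lower. Ccl5 was one of the higher ones at log2 1.79, though it was found in 6.03% of the cells.

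Lysosomal genes leaned the other way. Of 20 tested, 6 were higher by 2-fold or more, none was lower and the median was 0.60. The cathepsin genes Ctsl and Ctsh stood at log2 2.91 and 1.85, Ctsd at 1.29, Ctsa at 1.10 and progranulin (Grn) at 2.07. Ctsd was under 2-fold within C0303, at 0.86, and Ctsa under TMM scaling, at 0.92. Of 12 lipid genes 4 were higher and 3 lower. The oxysterol receptor gene Nr1h3 was at log2 2.93, with 117 of its 118 UMIs in C0303 cells and a ratio of 0.52 without them. Pparg, a lipid-sensing nuclear receptor, was at 1.18 and the cholesterol exporter gene Abcg1 at 1.29. The scavenger receptor gene Cd36 had 0 UMIs against 99, at least 13.1-fold lower.

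Of 18 lineage transcription factors tested, 6 were higher and 2 lower, with a median of 0.38. Batf3 was at log2 3.98 (3.30-4.72), Tcf7l2 at 1.86 and Id2 at 1.25, while Cebpb was at -1.71 and Klf4 at -1.90. Spi1 did not differ beyond counting error (log2 0.05, -0.16 to 0.26). Of 9 Toll-like receptor and adaptor genes, 3 were higher and 2 lower. The trafficking protein gene Unc93b1 stood at 617 CPM against 218 CPM, and Ly86 and Cd180, which form a receptor complex on B cells and myeloid cells, at log2 1.72 and 1.33. Tlr7 was at -1.62 and Tlr13 at -1.28. Of 7 type I interferon response genes, none was higher and Oasl2 (log2 -1.64) and Zbp1 (48.9 CPM against 138 CPM) were lower. The interferon-induced gene Ifitm1, outside that list, was higher at log2 3.53. Of 6 iron and heme genes 3 were higher, and heme oxygenase (Hmox1) was at 1.44. Its ratio was 0.83 within C0303, 3.95 without that hashtag and -0.029 as a mean over hashtag populations.

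Red pulp macrophages share C1q with these cells but little of the rest of their marker set. The C1q+ Fcgr4+ cells had more Spi1, Cd72 and Coro1a, and less of most listed red pulp macrophage genes. Of 1200 genes tested, 256 were higher by 2-fold or more (21.3%) and 99 lower (8.25%), with a median log2 ratio of 0.26. The 55 macrophages were shallow, with a median of 881 UMIs. TMM scaling shifted log2 ratios by 0.33 and gave 386 higher and 61 lower, so that 86.4% rather than 72.1% of these were the higher ones. Only 10 of the 116 C1q+ Fcgr4+ cells lay outside C0303, and without C0303 16 genes were higher and 27 lower. Within C0303, where 10 of the macrophages lay, 288 were higher and 78 lower.

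Furthest below red pulp macrophages, Trf (transferrin) had 0 UMIs against 101, at least 181-fold lower, and the mannose receptor gene Mrc1 had 0 against 62, at least 111-fold lower. The lectin gene Clec4n (log2 -7.49), Lrp1 (-7.01), the selenium carrier gene Selenop (-5.15), Apoe (-5.10) and Axl, a receptor for dying cells (-4.63), followed, with the protease inhibitor gene Slpi at -4.61. Of 6 red pulp macrophage genes outside the rule, 5 were lower and none higher (median -4.21). Of 10 core macrophage genes, 7 were lower and none higher, with Csf1r at -3.15. Of 6 iron and heme genes 4 were lower, Hmox1 at -3.78 and Blvrb, which acts after it, at -2.68, while the ferritin gene Fth1 (-0.72) and the metal transporter gene Slc11a1 (0.06) were within 2-fold. Of 6 lipid genes, Fabp4 and Pparg were higher by 2-fold or more, 2 were lower and 2 neither. The hemoglobin genes Hbb-bt and Hbb-bs were also among the 10 lowest, but 301 of the 316 Hbb-bs UMIs and 83 of the 91 Hbb-bt UMIs of the macrophages lay in 1 cell. Hbb-bs was found in 3 of 55 macrophages and in 15 of 116 C1q+ Fcgr4+ cells.

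Fcrl5 (log2 5.41, 2.92-10.72), Cd72 (5.32, 3.46-8.37) and the interferon-induced membrane gene Ifitm1 (5.05, 3.49-7.33) were among the 10 genes furthest above red pulp macrophages. Spi1 was at log2 2.34 (1.44-3.42), Coro1a at 2.79 and Pycard at 2.47. Of 14 nonclassical monocyte genes, 11 were higher and 1 lower, with a median of 1.88. Wfdc17 was at log2 1.36, and at 0.13 within C0303. The neutrophil genes S100a8 (7.53) and S100a9 (5.54) were also in that 10, but a few cells carried them. Without the 4 C1q+ Fcgr4+ cells rich in neutrophil RNA, S100a8 was at 0.50 and S100a9 at -2.02.

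Against conventional dendritic cells, the C1q+ Fcgr4+ cells had little Flt3, Irf8 and MHC class II, and much of the lipid, Fc receptor and inflammatory genes. Of 2580 genes tested, 362 were higher by 2-fold or more (14%) and 248 lower (9.61%), with a median log2 ratio of 0.04. TMM scaling shifted log2 ratios by -0.14 and gave 297 higher and 307 lower, so that 49.2% rather than 59.3% of these were the higher ones. Without C0303, 140 were higher and 230 lower, and within C0303, 283 were higher and 115 lower. The dendritic cell class also held plasmacytoid dendritic cell RNA, with Siglech at 213 CPM and in 26.5% of its cells, and the part of that RNA was not tested.

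Flt3 was at log2 -6.02 (-11.34 to -3.51), Siglech at -6.12, the transcription factor gene Irf8 at -3.78 and Zbtb46 at -3.07. Of 8 conventional dendritic cell genes outside the rule, 5 were lower and 1 higher (median -2.85). The higher one was Itgax at log2 1.70, while Batf3 (0.90) and Cadm1 (0.62) were within 2-fold. Of 15 nonclassical monocyte genes, 13 were higher and none lower, with a median of 3.91. Fabp4 stood at log2 8.91, the inhibitory receptor gene Pilra at 7.97, Nr1h3 at 7.62, the cyclin gene Ccnd2 at 7.22, Cd300e at 7.07 and Pparg at 6.18. Fcrl5 had 229 UMIs against 0, at least 127-fold higher, and Cd72 was at log2 5.90. Il1b was at 3.08, Wfdc17 at 3.39 and Fcer1g at 3.00.

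Antigen presentation genes set the C1q+ Fcgr4+ cells apart from dendritic cells. Of 12 class II presentation genes tested, 11 were lower by 2-fold or more and 1 was higher (median -2.97). H2-Aa was at 1041 CPM against 10752 CPM (log2 -3.37), H2-Ab1 at -3.00, H2-Eb1 at -2.94, the invariant chain gene Cd74 at -3.54, and Cst3, which is high in dendritic cells, at -1.53. Against nonclassical monocytes, none of 8 class II genes was past 2-fold in either direction, with H2-Aa at -0.32 and Cd74 at -0.61. These pooled values shifted with the hashtag. Within C0303, H2-Aa was at 1.27 and Cd74 at 1.07 against nonclassical monocytes, and without C0303 they were at -5.45 and -4.95. The 10 C1q+ Fcgr4+ cells outside C0303 gave 1 UMI of H2-Aa and 5 of Cd74. A few cells held most of the class II RNA in both classes, so these ratios do not describe the typical cell.

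A few cells held most of the class II RNA. The median C1q+ Fcgr4+ cell had 1 UMI of H2-Aa, H2-Ab1, H2-Eb1 and Cd74 together, 32 cells had none, and the highest had 465. The median was 1 in nonclassical monocytes, 14 in red pulp macrophages, 245 in conventional dendritic cells and 85 in B cells. There were 9 cells with 20 or more, all from C0303, which held 1651 of the 1888 UMIs (87.4%). These 9 cells were at 36553 CPM of class II and the other 107 at 839 CPM. Among the 9, a UMI of Xcr1, Clec9a, Cd209a, Clec10a, Clec4a4, Flt3 or Zbtb46 was found in 5, against 0 of the 107, and 6 held a UMI of Cd79b or Ms4a1, against 45 of the 107. Their median depth was 3904 UMIs against 2569. Whether they were doublets within 1 hashtag was not tested. Class II RNA was also uneven among nonclassical monocytes, where 30 of 299 cells had 20 or more of these UMIs and the top 9 cells held 58.9%.

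**Figure D4:**
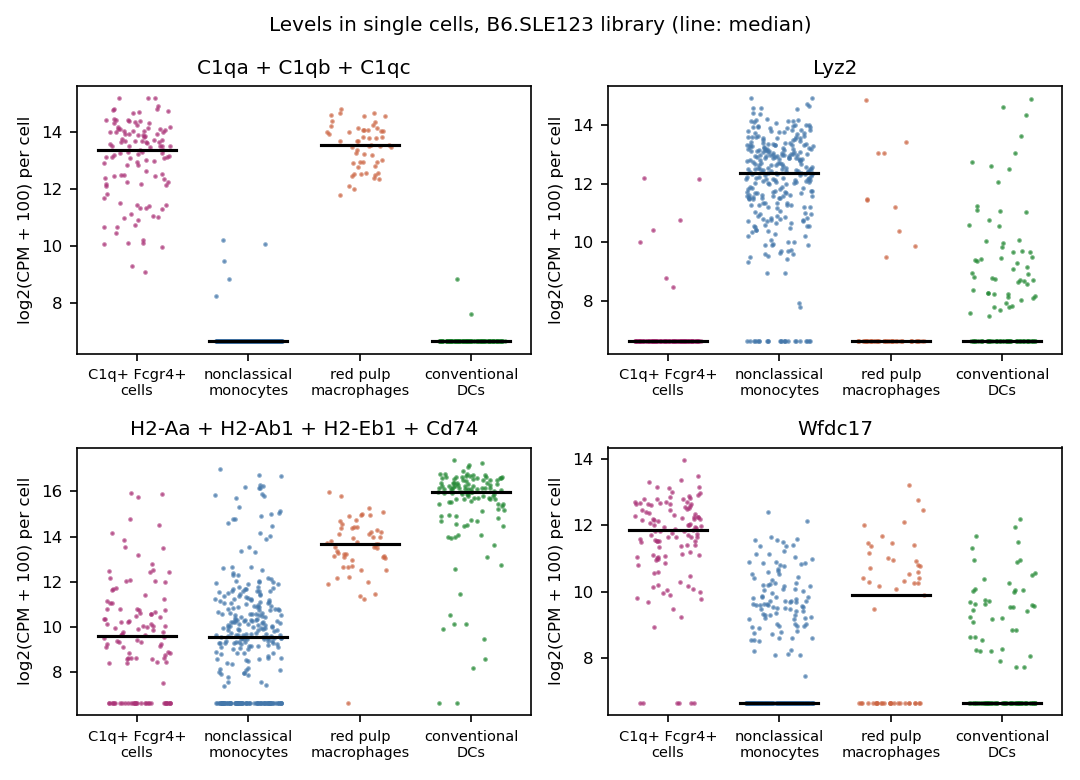
Levels per cell as log2(CPM + 100) of C1q (C1qa, C1qb and C1qc summed), Lyz2, MHC class II (H2-Aa, H2-Ab1, H2-Eb1 and Cd74 summed) and Wfdc17 in the 4 classes of the B6.SLE123 library, with 1 point per cell and a line at the median. The C1q+ Fcgr4+ cells are high in C1q and Wfdc17, mostly at the floor for Lyz2, and low for class II but for a small group of cells.

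RNA of other cell types was present at low levels in most lists. The 10 B cell genes summed to 690 CPM in the C1q+ Fcgr4+ cells and 689 CPM in nonclassical monocytes, with Cd79a (by the rule), Fcmr and Cr2 at 0. Ms4a1 (CD20) was in 1.72% of the C1q+ Fcgr4+ cells. It was in 100% of B cells by the choice of that class, so the contrast is no evidence. Cd79b was in 44.0% of them against 9.03% of nonclassical monocytes and 95.8% of B cells, a log2 ratio of 2.61 over nonclassical monocytes. Cd72 was at 304 CPM and Fcrl5 at 83.1 CPM in B cells, both below the C1q+ Fcgr4+ level. The T cell list gave 5 UMIs, with Cd3e, Cd3d, Cd3g and Trac at 0. The neutrophil list gave 6220 UMIs, of which 99.4% lay in 9 cells, while 77 cells had none.

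Cells that met one side of the rule only were also looked at. In the B6.SLE123 library, 50 cells met the Fcgr4 group limit with no C1q UMI, 45 of them in C0303, against 25 control and 7 Ang II cells. Of the 50, 27 (54%) held a UMI of Cd72 or Fcrl5 and 21 (42%) held 2 or more of Lyz2 and Ace, with 4 holding both. Among the C1q+ Fcgr4+ cells these shares were 91.4% and 3.45%, and among nonclassical monocytes 10.0% and 90.3%. Most of the 50 thus held 1 set of genes or the other. Their Cd72 was at 330 CPM and Fcrl5 at 220 CPM. Cxcl14, which helped to choose these cells, was at 291 CPM, a description only. All 3 were at 0 in the corresponding 25 control and 7 Ang II cells, few enough to limit what a 0 can show. Lyz2 was at 4884 CPM in the B6.SLE123 cells, 10030 CPM in the control and 13420 CPM in the Ang II cells.

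In the other direction, 55 B6.SLE123 cells held C1q with fewer than 3 UMIs of the Fcgr4 group, of which 56.4% held a UMI of Cd72 or Fcrl5 and 40% held 2 or more of Lyz2 and Ace. The nonclassical monocytes of the 3 libraries gave a view of Fcgr4 outside the rule. Fcgr4 was at 259 CPM in those of the control, 90.1 CPM in those of the Ang II and 226 CPM in those of the B6.SLE123 library, where it was 314 CPM in C0303 and 130 CPM in the other hashtags. Cxcl14 was at 34.7 CPM in C0303 nonclassical monocytes and at 0 in those of every other hashtag of B6.SLE123 and of both other libraries.

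The 106 cells of C0303 and the 10 other cells were set side by side for genes outside the rule. Cd72 differed by log2 0.17 (-0.43 to 0.85), Acp5 by -0.40 (-0.87 to 0.11) and Spi1 by -0.46 (-1.09 to 0.24), with counting intervals that hold 0. Cxcl14, a rule gene, gave 195 UMIs in the C0303 cells and 0 in the other 10. Wfdc17 was higher in C0303 cells by log2 1.33 (0.81-1.90) and Cd74 by 3.62 (2.39-5.25). The 9 cells rich in class II RNA, Cd74 included, were all from C0303. The median class II sum was 1 UMI in both groups, so the Cd74 value does not describe the typical C0303 cell. Ccl4 was lower in them, at log2 -1.07 (-1.99 to -0.02), and Hmox1 was at 276 CPM against 1732 CPM, where 2 of the 10 cells held it.

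Cell cycle genes were found in some of the cells. Of the C1q+ Fcgr4+ cells 18.1% (11.6-26.3%) held 2 or more UMIs of 10 such genes, against 6.02% (3.61-9.35%) of nonclassical monocytes and 9.22% of B cells. At 1000 UMIs per cell these shares were 6.73% (2.75-13.4%), 2.96% (1.29-5.75%) and 5.90%, and the intervals overlapped. None of the 4 cell cycle genes tested was past 2-fold in either direction against nonclassical monocytes.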

How the data were processed

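Each barcode's deposited values were UMI counts of genes and hashtags, unnormalized. The authors had run Cell Ranger (version 6.0.0 in the file headers) on build mm10, as the submitters' processing notes give it. The matrices held 32285 genes and 6 hashtags. Cells were kept as the study states, with the limits read as genes (over 200 and under 3500, under 15% mitochondrial counts), and doublets were treated only by the hashtag ratio of 3. UMIs were summed per class within the B6.SLE123 library and scaled to CPM. Ratios carry exact conditional intervals, CPM exact Poisson and shares Clopper-Pearson intervals. Genes needed 50 UMIs over both classes, and a class at 0 was set to 3 counts. Python 3.11.15, scipy 1.17.1 and edgeR 4.0.16 (TMM only) were used, with no count model, since each library stands alone. The steps were tested on simulated data. Members and lists were chosen with earlier results of these data known. Named genes were the 10 highest and 10 lowest per comparison, without rule genes and antigen receptor segments, and any gene of 36 lists. Alternatives changed the limits, scaling, hashtags, depth and classes. Some listed genes are not reported here. Figures used pseudocounts of 10 and 100 CPM.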

Additional observations from a re-analysis of the deposited data

Results flagged for a closer look

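The share of C1q+ Fcgr4+ cells in hashtag C0303 of the B6.SLE123 library, 3.21%, stood apart from the other 5 hashtag populations of that library. Its gap to the next was 0.934 of the whole range, past a limit of 0.625. That limit is Dixon's 95% value for 6 samples, used here as a mark and not as a test. The 6 populations are not replicates of 1 group, since each library pools 2 conditions, and the share is set by the rule, so the value only marks where the cells lay. The share of nonclassical monocytes, 4.23% in C0303 against 0.508 to 1.59% in the others, stood apart in the same way, with a gap of 0.711 of the range. For the same reason the limit carries no chance rate here, and 3 of 10 sets examined were past it. The other was the red pulp macrophage share of the control library, at 0.643.

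Outside the cells analysed, 6 B6.SLE123 barcodes met every RNA limit of the rule and failed only the hashtag limit, against 0 in the control and Ang II libraries. In 4 of them C0303 was the leading hashtag. Their leading hashtag was 1.07 to 2.39 times the next one, and their median depth was 2681.5 UMIs against 2731.5 in the C1q+ Fcgr4+ cells.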

How the results depend on the processing

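No paired analysis was possible because each strain or treatment was 1 library and the hashtags were tied to no condition. The share of C1q+ Fcgr4+ cells, 0.662%, was 0.993% without the C1q limit (174 cells), 0.537% with 6 or more UMIs of the Fcgr4 group, 0.522% in cells thinned to 1000 UMIs, and 0.0704 to 0.817% when a hashtag was left out, lowest without C0303. Against nonclassical monocytes, genes higher and lower by 2-fold or more numbered 661 and 727 with a minimum of 20 UMIs, 127 and 197 with 100 and 80 and 155 after thinning, 150 to 263 and 306 to 337 when a hashtag was left out, and 1057 were lower as a mean over hashtag populations. Against red pulp macrophages they numbered 386 and 61 under TMM scaling, 666 and 356 with 20 UMIs, 135 and 40 with 100 and 104 and 22 after thinning, 16 to 271 and 27 to 99 when a hashtag was left out, and 166 were lower as a mean over hashtag populations. Against conventional dendritic cells they numbered 775 and 641 with 20 UMIs, 185 and 113 with 100 and 119 and 51 after thinning, 140 to 357 and 215 to 230 when a hashtag was left out, 707 were lower as a mean over hashtag populations and 115 within C0303. A lower or higher UMI minimum, thinning and fewer cells change how many genes are tested. Of 4551 values of single named genes, 4031 stayed inside the counting interval of the reported value, 515 moved out of it in the same direction or without a 2-fold difference, and 5 changed direction. These were Hmox1 (-0.029) and Cfp (-0.033) against nonclassical monocytes as a mean over hashtag populations, and S100a9 against red pulp macrophages without C0303 (-1.77, with 6.59 as the highest value when another hashtag was left out) or without cells rich in neutrophil RNA (-2.02) and against conventional dendritic cells without the latter (-0.15). When a hashtag was left out, Cfp lay at 2.04 to 3.00 and Hmox1 at 0.86 to 3.95. The cause of these changes was not tested. Depth limits what a count of 0 can show. The 10 C1q+ Fcgr4+ cells outside C0303 and the 55 shallow red pulp macrophages give wide intervals for low genes. Doublets within 1 hashtag were not visible. Leaving out the cells rich in neutrophil RNA, chosen as an alternative after seeing the data, kept the share at 0.671%.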

Other observations

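Cd22, the inhibitory lectin gene of B cells, was singled out after its values were seen. It was at 424 CPM in the nonclassical monocytes of the B6.SLE123 library, against 7.63 CPM in those of the control and 6.43 CPM in those of the Ang II library. In the C1q+ Fcgr4+ cells it was at 12.2 CPM. Within the B6.SLE123 library the nonclassical level was 368 CPM in C0303 and 485 CPM in the other hashtags. In the same cells Wfdc17 was at 433 CPM against 214 CPM in the control and 181 CPM in the Ang II library, and Lyz2 at 8116 CPM against 12075 and 12296 CPM. None of these differences between libraries has a replicate check.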
